A study of Mus musculus with 3 samples.

Results

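The genes described here encode the receptors for the colony stimulating factors (Csf1r, Csf2ra, Csf2rb, Csf2rb2 and Csf3r), the ligands of the first of these receptors (Csf1 and Il34), and a pair of macrophage surface and lysosomal markers, Emr1 (the gene of the F4/80 antigen) and Cd68. They were chosen by name, not by their values, although earlier results of these data were known. Of these 9 genes, 8 had at least 1 transcript with a value in each of the 3 libraries, as did 36835 genes in all. The exception was Csf2rb2, which is described by its separate rows. RNA was sequenced from cells sorted out of BALB/C mice bearing tumors of a mouse renal carcinoma cell line injected into the kidney, written Renca in the labels and Renca Ch+ L+ (Cherry Luciferase) in the study's methods. Material of 30 tumors and 4 spleens was pooled, so each library is 1 pool of animals. Every mouse carried a tumor, and no library came from tumor-free animals. The harvest is given as day 14 in 1 label and day 16 in another. By the labels, the library labelled CD4 held CD4 T lymphocytes, whose organ the labels give both as spleen and as tumor. The libraries labelled M1 and M2 held type-1 and type-2 macrophages from the tumors. The sort used F4/80 and CD11b on the surface, with F4/80 high and CD11b intermediate for M2 and the opposite for M1, and TCRbeta with CD4 for the T cells. No agent or altered allele is named in the labels.

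The colony stimulating factors control the output and survival of myeloid cells. CSF1 (M-CSF) and IL-34 both bind the receptor tyrosine kinase CSF1R, which most tissue macrophages need in order to survive and divide. GM-CSF binds a receptor built of its own alpha chain (Csf2ra) and a beta chain shared with the IL-3 and IL-5 receptors (Csf2rb), and G-CSF binds CSF3R, best known from neutrophils. F4/80 is an adhesion-type G protein-coupled receptor used to recognise mouse macrophages, and CD68 is a heavily glycosylated protein of late endosomes and lysosomes.

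The column headings and the marker genes pointed in different directions, which bears on every value that follows. Of 10 T cell genes, 10 were highest in the library labelled M2, with a summed level of 1552 FPKM (the deposited unit, fragments scaled to transcript length and to the mapped total) against 18.3 in the library labelled CD4 and 13.9 in the one labelled M1. Cd3e, a defining part of the T cell receptor complex, was at 0.141 FPKM in the library labelled CD4, 0.131 in M1 and 126 in M2. Of 12 macrophage genes outside the 9 described here, 12 were lower in the library labelled M2 than in both others, and their sums were 13287 FPKM in CD4, 8681 in M1 and 644 in M2. The libraries are therefore called by their labels throughout, and the cells in them are not named. The depth estimated from the smallest steps in the values was 60.8 to 74.8 M fragments (M for mega), so a level of 3 fragments lay between 0.0087 and 0.0275 FPKM. With 1 library per label there was no replicate spread and no test. A gene is called higher where FPKM + 1 was at least 2-fold higher, a scale that understates the ratio of low genes, and ratios are of FPKM itself. Counting intervals are exact 95% intervals from the estimated fragments and cover counting error only.

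Most of the genes were far lower in the library labelled M2 than in the other libraries. Csf1r, Csf2ra, Csf2rb, Csf3r, Emr1 and Cd68, 6 of 8, were called higher in the library labelled CD4 than in M2, where 5.17% of all genes and 15.3% of genes with at least 1 FPKM in either library were called. The same 6 of 8 were called higher in the library labelled M1 than in M2, against 4.9% of all genes and 14.5% of those with at least 1 FPKM. None of the 8 was called higher in M2, against 5.85% and 17.3% of genes on these bases in the comparison with CD4, and 5.73% and 17.0% in the comparison with M1. Both comparisons use the same library labelled M2, so they are not independent of each other. The median log2 ratio of the 8 genes was 3.05 for CD4 over M2 and 2.11 for M1 over M2, and that of all genes was 0 in both. Between the libraries labelled CD4 and M1, Emr1 alone was called. It was higher in CD4, where 2.2% of all genes and 6.98% of those with at least 1 FPKM were called, and none was called higher in M1, against 2.28% and 7.24%. In such bulk values, fewer cells of a type and less RNA per cell cannot be told apart.

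**Figure D1:**
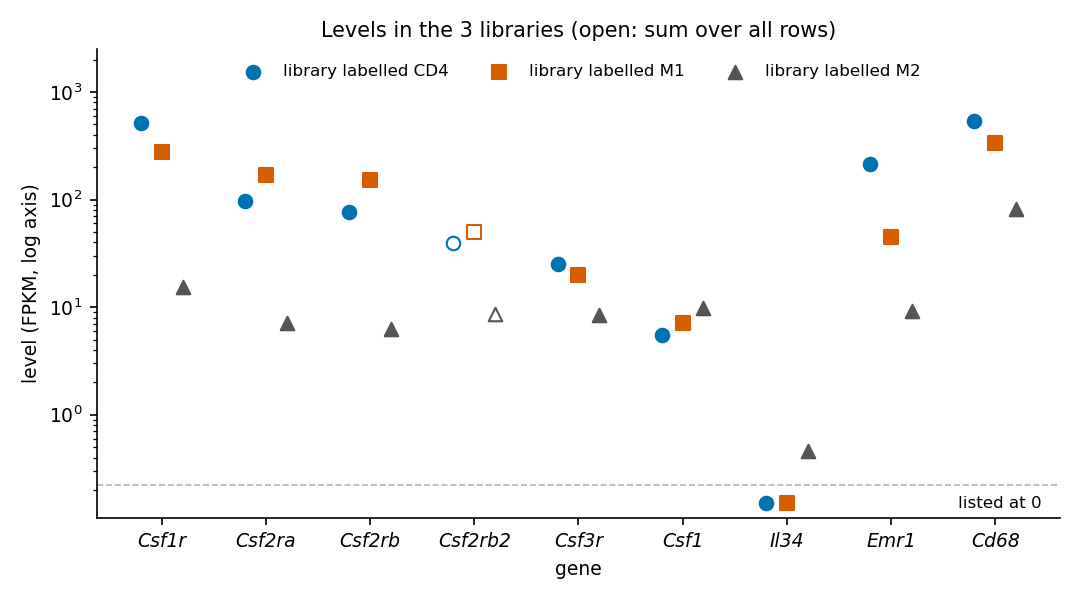
FPKM of each gene (log axis) in the libraries labelled CD4, M1 and M2, 1 point per library; open points, for Csf2rb2, are sums over all rows, and points under the dashed line are listed at 0. Csf1r, Csf2ra, Csf2rb, Emr1 and Cd68 are far lower in the library labelled M2, Csf3r less so, and Csf1 is highest there.

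Csf1r, the CSF1 and IL-34 receptor, was among the most abundant transcripts in the sorted cells. It was at 519 FPKM in the library labelled CD4, 279 in M1 and 15.3 in M2. Among the genes above 0 in each library these levels lay at percentiles 99.7, 99.2 and 79.0, so the receptor was near the top of the list in CD4 and M1 and still well above the median gene in M2. The ratio was 33.9 (counting interval 32.8 to 35.1) for CD4 over M2, 18.2 (17.6 to 18.8) for M1 over M2, and 1.86 (1.85 to 1.88) for CD4 over M1, short of the call. The level in M2 was 5.49% of that in M1, where the median over the 12 other macrophage genes was 9.84%. Transcript Csf1r-001 held 100% of the gene's level in each library, and the other listed transcripts were at 0. Csf1r lies at chr18:61265226-61291803 on the plus strand of NCBIM37 (mm9), and 871 of its exon bases (16.7%) also belong to Hmgxb3 on the opposite strand. The counting is not stated to use strand, so reads of the shared stretch could come from either gene.

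Csf2ra (chr19:61300305-61304321, minus strand) encodes the GM-CSF-specific alpha chain and Csf2rb the shared beta chain that carries the signal through JAK2. Csf2ra was at 96.3 FPKM in the library labelled CD4, 170 in M1 and 7.17 in M2. Csf2rb was at 76.4 FPKM in CD4, 153 in M1 and 6.32 in M2. Both chains were thus highest in M1 and lowest in M2, unlike Csf1r, which was highest in CD4. For M1 over M2 the ratio was 23.7 (counting interval 22.1 to 25.5) for Csf2ra and 24.1 (23.0 to 25.3) for Csf2rb. For CD4 over M2 it was 13.4 (12.5 to 14.4) and 12.1 (11.5 to 12.7). Csf2ra was 1.77-fold and Csf2rb 2.0-fold higher in M1 than in CD4, and on the scale of FPKM + 1 the log2 differences of CD4 from M1, -0.81 and -0.99, fell just inside the 2-fold limit. A change of limit to 1.5-fold called both. Of 6 monocyte marker genes, 5 were also highest in M1, with sums of 572 FPKM in CD4, 795 in M1 and 91.9 in M2. Of 7 dendritic cell genes 5 were highest in M2, with sums of 32.7, 133 and 145. The sum in M2 was mostly Ccr7, at 0.464, 6.44 and 122 FPKM. Those in CD4 and M1 were mostly Itgax, at 29.5, 124 and 5.30 FPKM. Flt3, Xcr1 and Clec9a were at 2.19, 0.533 and 1.09 FPKM in M2. The part of monocytes and dendritic cells in the levels of these chains was not tested.

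The ratio of the alpha to the beta chain moved little across libraries in the kept rows. Compared per length of transcript, the level of Csf2ra over that of Csf2rb was 1.26 in the library labelled CD4, 1.11 in M1 and 1.13 in M2, although each chain was at least 12.1-fold lower in M2 than in the others in these rows. Csf1r over Csf2ra was 5.39 in CD4, 1.64 in M1 and 2.14 in M2, and Csf1r over Csf2rb was 6.80, 1.83 and 2.42. The CSF1 receptor was therefore more abundant than either GM-CSF receptor chain in every library, and by the widest margin in CD4. Csf1r over Csf3r was 20.5 in CD4, 14.1 in M1 and 1.82 in M2. All rows were also summed with a dash as 0, a choice made after seeing the data. Csf2ra over Csf2rb was then 1.28 in CD4, 1.12 in M1 and 0.793 in M2. Csf1r over Csf2rb was 6.80, 1.83 and 1.35, so that M2 fell below M1. Csf1r over Csf2ra, at 5.33, 1.62 and 1.70, kept its order. Csf1r over Csf3r was 9.01, 14.1 and 1.24, so that M1 then had the highest ratio.

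**Figure D2:**
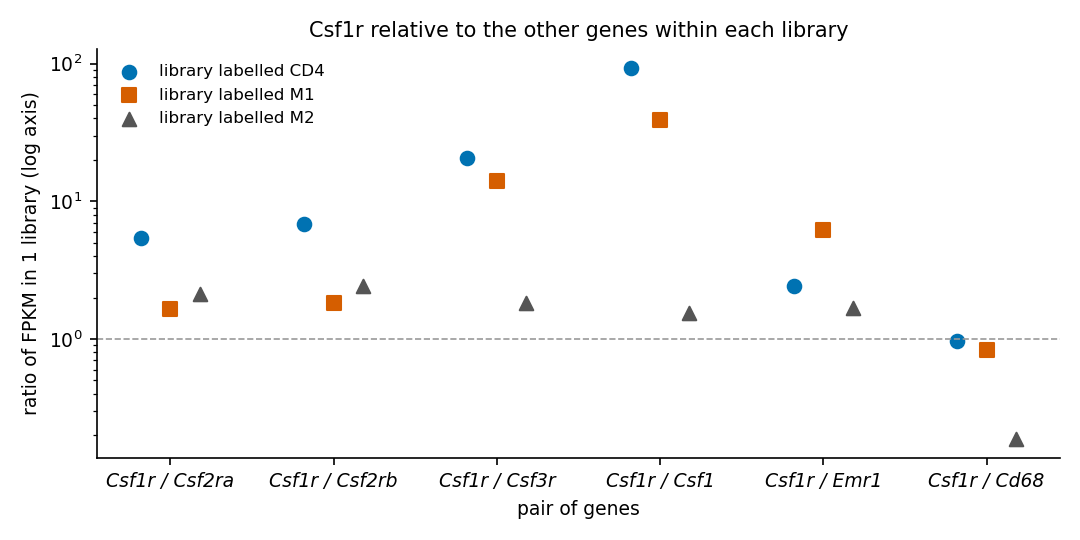
Ratio of the FPKM of Csf1r to that of 6 other genes within each library in the kept rows, 1 point per library, on a log axis with a dashed line at 1. The ratios to Csf2ra, Csf2rb, Csf3r and Csf1 are highest in the library labelled CD4 (over all rows that to Csf3r is highest in M1, at 14.1 against 9.01), that to Emr1 is highest in M1 (6.15), and that to Cd68 is below 1 in all 3 libraries.

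Csf2rb2 encodes a second beta chain, found in mice, that pairs with the IL-3 receptor alpha chain. It lies at chr15:78112947-78136052 on the minus strand, beside Csf2rb at chr15:78156420-78184277 on the plus strand (NCBIM37). The table lists it in 5 rows, none with a value in all 3 columns. Csf2rb2-201 was at 33.8 FPKM in the library labelled CD4 and 40.8 in M1, Csf2rb2-202 at 5.96 and 8.90, and the library labelled M2 had 3 rows of its own for Csf2rb2-201 at 4.19, 3.56 and 0.904 FPKM. Summed over all rows, with a dash taken as 0, the gene was at 39.8, 49.7 and 8.66 FPKM, which is 4.60-fold higher in CD4 and 5.74-fold higher in M1 than in M2. The order of the 3 libraries was the same as for Csf2rb.

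A minority of single reads of the 2 beta chain genes cannot be kept apart, and the sequences show an example. Their coding sequences were 95.2% identical over 2631 aligned bases. For Csf2rb, that sequence and the stretches printed below are from a transcript of 4764 bases that has no row of values. Csf2rb-203, the transcript with values, has 4762 bases. Of its stretches of 51 bases, the read length, 18.3% also occur in transcripts of Csf2rb2. The pair of 60-base coding stretches with the most and with the fewest mismatches are printed 5′ to 3′ from NCBIM37, with mismatched bases in capitals. The most different pair has 13 mismatches, at chr15:78169323-78169382 on the plus strand for Csf2rb and chr15:78124809-78124868 on the minus strand for Csf2rb2.
Csf2rb: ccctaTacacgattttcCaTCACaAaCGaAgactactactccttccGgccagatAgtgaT
Csf2rb2: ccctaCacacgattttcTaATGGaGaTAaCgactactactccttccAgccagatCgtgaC
The least different pair is the first along the coding sequence with 0 mismatches. It lies directly upstream, at chr15:78169264-78169323 and chr15:78124868-78124927, and its last base is the first base of the most different pair.
Csf2rb: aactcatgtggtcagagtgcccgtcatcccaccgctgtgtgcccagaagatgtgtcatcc
Csf2rb2: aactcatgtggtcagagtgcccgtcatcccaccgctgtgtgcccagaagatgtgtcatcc
A single read inside the second pair matches both genes equally. By the study's methods the reads were paired, and the mate of such a read can lie where the genes differ. How far the split between Csf2rb and Csf2rb2 is uncertain was not tested. Csf2rb itself had a further row for M2 alone at 5.02 FPKM. With it the level in M2 was 11.3 FPKM, and the log2 ratios were 2.65 for CD4 over M2 and 3.64 for M1 over M2.

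Csf3r (chr4:125701794-125722219, plus strand), the G-CSF receptor, varied least of the receptors between libraries in the kept rows. It was at 25.3 FPKM in CD4, 19.7 in M1 and 8.40 in M2, with ratios of 3.01 (counting interval 2.86 to 3.17) for CD4 over M2, 2.35 (2.22 to 2.48) for M1 over M2 and 1.28 (1.24 to 1.34) for CD4 over M1. The level in M2 was 42.6% of that in M1, against 4.22% for Csf2ra and 4.14% for Csf2rb. Of 11 neutrophil genes, 9 were highest in the library labelled M2, with sums of 12.3 FPKM in CD4, 58.7 in M1 and 241 in M2. S100a8 was at 4.17, 19.0 and 84.5 FPKM, while Ly6g, a defining neutrophil gene, was listed at 0 in M2 in the kept row but at 1.26 FPKM over all rows. The part of such cells in the Csf3r values was not tested.

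The Csf3r calls depend on which rows are counted. A pair of rows of Csf3r-001, at 4.59 and 27.7 FPKM, had a value in the library labelled CD4 alone, and another, at 3.97 FPKM, in M2 alone. Summed over all rows, Csf3r was at 57.6 FPKM in CD4, 19.7 in M1 and 12.4 in M2. It was then called higher in CD4 than in M1, 2.92-fold, and no longer called in M1 over M2, at 1.59-fold. Among the receptors over all rows, Csf3r had the largest difference between CD4 and M1, while its M1 over M2 ratio stayed the smallest. The kept rows divide the level between Csf3r-001 (29.3% in CD4, 43.8% in M1 and 35.3% in M2), Csf3r-201 (48.4%, 56.2% and 64.7%) and Csf3r-202, which held 22.3% in CD4 and was listed at 0 in the others. Csf3r-001 and Csf3r-201 have the same coding sequence of 2514 bases, and that of Csf3r-202 has 2190.

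**Figure D3:**
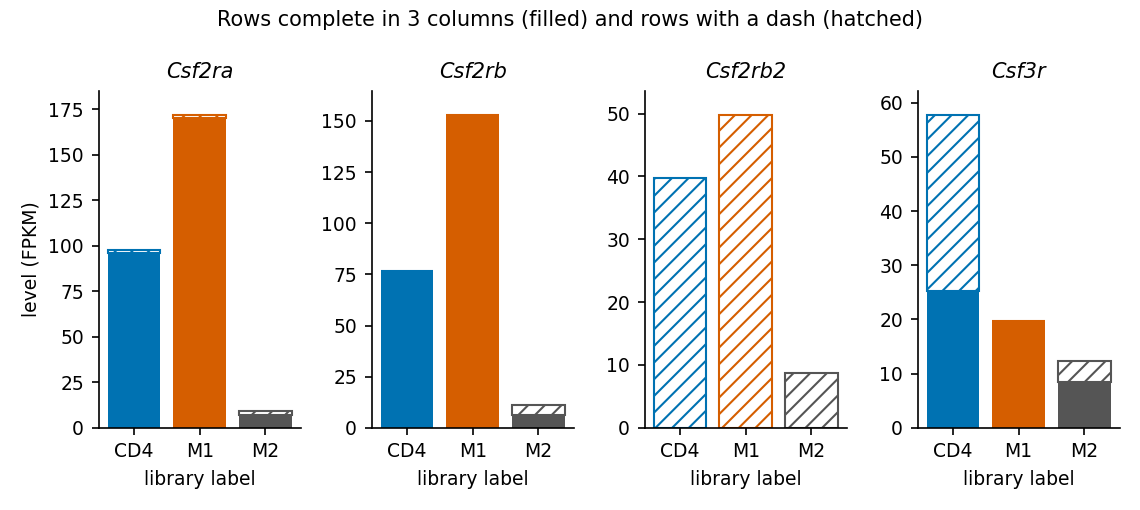
FPKM of 4 receptor genes in each library, with a separate scale per gene; filled bars are rows with a value in all 3 columns and hatched bars rows with a dash in at least 1 column. Csf2rb2 rests wholly on the second kind, which also adds 32.3 FPKM to Csf3r in the library labelled CD4 and 5.02 to Csf2rb in M2.

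Csf1 (chr3:107543966-107563387, minus strand) encodes the CSF1 ligand, which is made as a long precursor, secreted or held on proteoglycan, and as a short form that stays longer at the cell surface. Its level was 5.57 FPKM in the library labelled CD4, 7.19 in M1 and 9.84 in M2, the reverse of the order of its receptor. M2 was 1.77-fold above CD4 and 1.37-fold above M1, and M1 was 1.29-fold above CD4, all short of the call. The counting interval was 0.531 to 0.604 for CD4 over M2 and 0.686 to 0.779 for M1 over M2, so the order lay outside counting error. Per length of transcript, Csf1r over Csf1 was 93.2 in CD4, 38.8 in M1 and 1.56 in M2. The 8 genes of kidney epithelium summed to 93.0 FPKM in CD4, 117 in M1 and 192 in M2, and 4 of the 8 were highest in M2. The step from CD4 to M1 came from Cdh1, at 3.84 and 48.2 FPKM, and the median ratio of CD4 over M1 in the list was 1.37. The part of such cells in the Csf1 values was not tested.

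Both forms of Csf1 were present in every library. Csf1-001, with the long coding sequence of 1659 bases, was at 3.88 FPKM in the library labelled CD4, 5.22 in M1 and 6.58 in M2, which is 69.6%, 72.6% and 66.9% of the gene. Csf1-004, with the short coding sequence of 774 bases, was at 1.69, 1.97 and 3.25 FPKM, or 30.4%, 27.4% and 33.1%. The shares hardly moved, and the long form led throughout. The short form lacks 885 coding bases (295 codons) of exon 6, at chr3:107551203-107552087 on the minus strand of NCBIM37. The joins that tell the forms apart are printed 5′ to 3′ as spliced, 48 bases each, with the bases found in the long form alone in capitals.
Csf1-001, into the stretch: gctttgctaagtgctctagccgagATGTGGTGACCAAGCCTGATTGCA
Csf1-001, out of the stretch: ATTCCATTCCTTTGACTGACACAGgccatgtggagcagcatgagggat
Csf1-004, across the junction: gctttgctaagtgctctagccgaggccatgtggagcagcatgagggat
The short form shares all its bases with the long one (1118 bases of Csf1-001 are not in Csf1-004, and 0 the other way), so reads across the third join are the only ones particular to it.

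Il34 (chr8:113265729-113329824, minus strand), the other ligand of CSF1R, was low, and its values depended on the rows used. Its level in the kept rows of the library labelled M2 rested on an estimated 48 fragments. In its kept rows the libraries labelled CD4 and M1 show 0, and M2 shows 0.461 FPKM, and a listed 0 can also be a failed estimate. Rows with a dash held 0.664 FPKM in CD4, 0.340 in M1 and 0.389 in M2, so low values occurred in all 3. No direction is drawn from them. The other ligands of these receptors were as low: Csf2, the gene of GM-CSF, was at 0.0842 FPKM in CD4, 0.0182 in M1 and 0.279 in M2, Csf3, that of G-CSF, at 0.0195, 0 and 0.0116, and Il3 and Il5 were listed at 0 in every library. Il3ra, the IL-3 receptor alpha chain that pairs with either beta chain, was at 3.51, 4.23 and 0.750 FPKM and was called higher in both CD4 and M1 than in M2. Over all rows it was at 11.5, 8.64 and 4.52 FPKM, which ends the call of M1 over M2 and turns the order of CD4 and M1.

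Emr1 (chr17:57498109-57622952, plus strand) had the largest ratio of the 8 genes between the libraries labelled CD4 and M1. It was at 215 FPKM in CD4, 45.3 in M1 and 9.16 in M2, 4.76-fold (counting interval 4.65 to 4.86) higher in CD4 than in M1, 23.5-fold (22.4 to 24.7) higher in CD4 than in M2 and 4.94-fold (4.70 to 5.20) higher in M1 than in M2. Because the F4/80 protein was a sort gate, these values check the labels and are no finding. By the gates M2 should have held the most F4/80 and CD4 the least, and the values ran the other way. Itgam, the gene of CD11b, was at 201, 299 and 14.7 FPKM, so that Emr1 over Itgam was 1.07 in CD4, 0.152 in M1 and 0.622 in M2. Csf1r over Emr1 was 2.41, 6.15 and 1.67, so the receptor and the antigen did not move in step. Emr1-204 held 100% of the level in every library.

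Cd68 (chr11:69477715-69479655, minus strand) fell less in the library labelled M2 than Csf1r and Emr1 did when set against CD4. It was at 534 FPKM in the library labelled CD4, 336 in M1 and 81.8 in M2, percentiles 99.7, 99.3 and 97.2 of the genes above 0. It was 6.53-fold (counting interval 6.35 to 6.70) higher in CD4 and 4.11-fold (3.99 to 4.22) higher in M1 than in M2, and 1.59-fold (1.57 to 1.61) higher in CD4 than in M1. Per length of transcript Cd68 was close to Csf1r in CD4 (Csf1r over Cd68 0.973) and in M1 (0.830) but well above it in M2 (0.187). Its level in M2 was 24.4% of that in M1, against 5.49% for Csf1r.

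**Figure D4:**
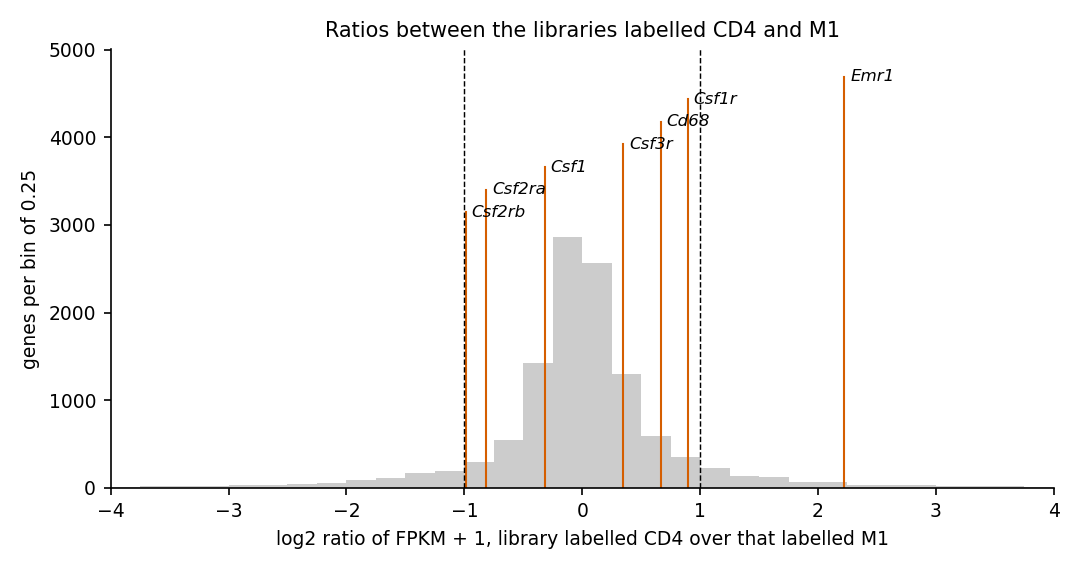
Log2 ratio of FPKM + 1 for the library labelled CD4 over M1: grey bars count the genes with at least 1 FPKM in either library per bin of 0.25, orange lines mark 7 of the genes described (their heights carry no value), and dashed lines are the 2-fold limits. Emr1 lies outside the limits at 2.22, and Csf1r at 0.90 and Csf2rb at -0.99 lie just inside on opposite sides.

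Genes whose levels in the 3 libraries lay closest to those of a member were named by their distance on the log2(FPKM + 1) scale among 7032 genes with at least 10 FPKM in 1 library. Nearest to Csf1r were Dab2, an endocytic adaptor (distance 0.53), Mrc1, the mannose receptor (0.59), and Trf, transferrin (0.75). Dab2 was at 446, 199 and 15.6 FPKM in the libraries labelled CD4, M1 and M2. Nearest to Csf2ra was Sfpi1, which encodes the myeloid transcription factor PU.1 (distance 0.37), at 112, 139 and 7.51 FPKM, followed by Clec4a2 and Axl. Csf2rb had Bcl2a1a, Tm6sf1 and Sfpi1, Csf3r had Tmem127, Bmp2k and Erlin2, and Cd68 had Ctsa, Ifi30 and Gm15590. The measure rests on 3 values per gene and says only that the levels were alike.

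PU.1 binds a purine-rich box, GAGGAA, and the promoters of 5 of the 9 genes were searched for these letters on both strands (RefSeq, GRCm38.p6, 250 bases before to 50 after the start). The box was in 28.1% of 32544 promoters. Csf2ra, Csf2rb2 and Cd68 each held 2 matches, Csf3r held 1 and Csf1 held none, while TATAAA, the TATA box, was in 13.6% of all promoters and in none of the 5. A stretch of 150 bases from each of the promoters of Csf2ra and Csf3r is printed 5′ to 3′ with the matches in capitals. In the kept rows they are a receptor gene with a deep fall in M2 and the one with the smallest. The Csf2ra stretch is chr19:61228419-61228568 on the minus strand and the Csf3r stretch chr4:126024509-126024658 on the plus strand.
Csf2ra: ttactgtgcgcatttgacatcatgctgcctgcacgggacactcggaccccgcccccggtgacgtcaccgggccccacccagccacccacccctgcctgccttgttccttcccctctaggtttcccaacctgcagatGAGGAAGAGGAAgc
Csf3r: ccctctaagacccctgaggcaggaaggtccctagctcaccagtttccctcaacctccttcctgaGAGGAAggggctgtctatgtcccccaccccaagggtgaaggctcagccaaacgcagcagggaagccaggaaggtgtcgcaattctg
The matches are a description of the letters, not binding sites.

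The other genes of these pathways were counted by lists, to be read against the shares of genes with at least 1 FPKM called: 15.3% for CD4 over M2, 17.3% for M2 over CD4, 14.5% for M1 over M2, 17.0% for M2 over M1, 6.98% for CD4 over M1 and 7.24% for M1 over CD4. Counts over all rows are to be read against the shares over all rows, in the same order 14.2%, 20.5%, 13.5%, 20.1%, 6.77% and 7.0%. Of 6 transcription factors of the receptor genes, 3 were called higher in the library labelled CD4 and 4 in M1 than in M2, and none the other way. Cebpb was at 62.6, 106 and 22.0 FPKM in CD4, M1 and M2, and Cebpe, a late granulocyte factor, at 0.240, 7.85 and 0.290, the only one of the 6 called between M1 and CD4. Of 16 genes of CSF1R signalling, 8 were called higher in CD4 than in M2 and 2 lower, 5 higher and 2 lower in M1 than in M2, and 1 higher in CD4 than in M1. Tyrobp, the adaptor DAP12, was at 700, 688 and 68.0 FPKM, and Ptpn6, the phosphatase SHP-1, at 129, 130 and 81.8. The genes called lower were Akt1, a kinase of the survival pathway named after its values were seen, and Cbl, a ubiquitin ligase and the one gene called between CD4 and M1. Both rest on the rows used: over all rows Akt1 was at 85.6, 102 and 46.9 FPKM and Cbl, listed at 0 in M1 in the kept rows, at 29.9, 35.8 and 29.7. The list then had 8 higher and 1 lower in CD4 than in M2, 6 higher and 2 lower in M1 than in M2, and none called between CD4 and M1, with other genes (Pik3r1, and Sos1 for M1, likewise named after their values were seen) as the lower ones.

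The kinases, STATs and inhibitors that act below the cytokine-type receptors were called in both directions against M2 in the kept rows. Of 11 JAK-STAT genes, 1 was called higher and 6 lower in the library labelled CD4 than in M2, 2 higher and 3 lower in M1 than in M2, and 4 higher in M1 than in CD4. Jak1 was at 54.5, 60.5 and 146 FPKM in CD4, M1 and M2, and Socs3, an inhibitor that acts on the G-CSF receptor, at 53.6, 54.5 and 19.7. Socs1 was 3.08-fold higher in M1 than in CD4, and Jak2 and Cish, named after their values were seen because they complete the 4, were 2.77-fold and 5.51-fold higher. The fourth, Tyk2, was listed at 0 in CD4 in the kept rows but was at 18.4, 28.4 and 17.5 FPKM over all rows. Over all rows the list had none higher and 4 lower in CD4 than in M2, 1 higher and 3 lower in M1 than in M2, and 3 higher in M1 than in CD4. The shares over all rows were 20.5% for M2 over CD4, 13.5% for M1 over M2, 20.1% for M2 over M1 and 7.0% for M1 over CD4.

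Relatives of CSF1R and F4/80 were not called higher in CD4 than in M2 in the kept rows, while 2 relatives of CD68 were. Of 4 other class III receptor tyrosine kinases, the family of CSF1R, none was called higher in the libraries labelled CD4 or M1 than in M2, and 1 was lower in both comparisons. Flt3, the receptor of dendritic cell precursors, was at 0.227, 0.314 and 2.19 FPKM in CD4, M1 and M2. Cd97, of the F4/80 family, was at 58.1, 76.5 and 169 FPKM, opposite in order to Emr1, and was called higher in M2 than in both others. Emr4, of the same family, was at 2.76, 7.96 and 1.67 and was called higher in M1 than in both others. Over all rows Emr4 was at 4.39 FPKM in CD4 and was called higher there than in M2 as well. Of 3 LAMP family genes, to which CD68 is related, 2 were called higher in CD4 and 1 in M1 than in M2. Over all rows Lamp2 was at 258, 180 and 78.9 FPKM, and 2 were called higher in M1 as well. Lamp1, the major lysosomal membrane protein, was at 734, 380 and 186 FPKM, ordered like Cd68.

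**Figure D5:**
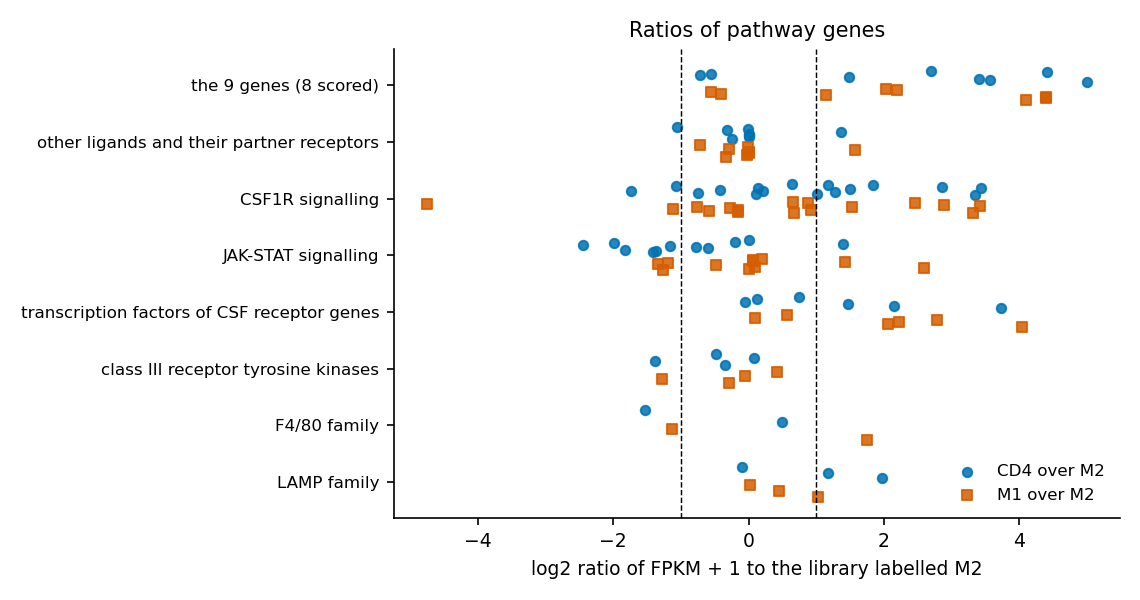
Log2 ratio of FPKM + 1 to the library labelled M2 for the genes of each list, 1 point per gene (circles CD4 over M2, squares M1 over M2), with dashed lines at the 2-fold limits. Transcription factors reach the upper side and none lies past the lower limit, JAK-STAT genes lie on both sides, and the lowest point among the CSF1R signalling genes is Cbl, from a listed 0 in M1.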

How the data were processed

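Total RNA of 3 sorted populations, 1 library each, was sequenced in paired reads of 51 bases. The authors aligned reads and estimated transcript levels, and the submitters' notes name TopHat, Bowtie and Cuffdiff with mouse build mm9. The study's methods also name Cufflinks, which identified transcripts by an assembly guided by Ensembl annotation. The authors deposited 1 table of FPKM per transcript, normalised for length and mapped fragments. How the libraries were joined into its 135070 rows is not given in the sources used here. A dash stands where a row has no value (23458 to 28490 per library), and 10182 rows without an identifier were left out. Of the identifiers, 97.6% were found in the NCBIM37 annotation. Per identifier the first row with values in all 3 columns was kept and summed per gene. Ratios used log2(FPKM + 1), with a call at 2-fold. Named were the 9 genes with their transcripts, per list the 2 highest and the 2 most changed genes, and the 3 nearest genes per member. Some results named by this rule are not reported here. The members and lists were chosen with earlier results of these data known. Depth was estimated from the steps between low values, and intervals are Clopper-Pearson. Sequences came from NCBIM37 transcripts and RefSeq promoters (GRCm38.p6). Python 3.11.15, numpy 2.4.6, pandas 2.3.3, scipy 1.17.1 and Biopython 1.88 were used, and the scripts were tested on simulated data. Alternatives were another pseudocount, a filter, other limits, median scaling and other handling of rows.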

Additional observations from a re-analysis of the deposited data

Results flagged for a closer look

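Rows with a value in only 1 or 2 libraries stand outside the comparisons above, and those of the 9 genes that held a value above the level of 3 fragments are given here without a comparison. Csf2ra-201 had separate rows at 1.24 FPKM in the library labelled CD4, 1.61 in M1 and 1.82 in M2. Csf2rb-203 had a row at 5.02 FPKM in M2. Csf2rb2-201 was at 33.8 FPKM in CD4, 40.8 in M1 and, in 3 rows, 4.19, 3.56 and 0.904 in M2, and Csf2rb2-202 at 5.96 in CD4 and 8.90 in M1. Csf3r-001 had rows at 4.59 and 27.7 FPKM in CD4 and 3.97 in M2. Il34-002 had rows at 0.233 and 0.431 FPKM in CD4, 0.149 and 0.191 in M1 and 0.389 in M2. The study's methods describe a transcript assembly guided by annotation. Whether rows that share an identifier are separately assembled transcripts was not tested.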

How the results depend on the processing

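No paired analysis was possible because a single library stood for each label, and for the same reason no replicate could be left out. Among the 8 genes with complete rows, no called ratio changed direction under the alternatives run for them. Other genes were recomputed with all rows only, where Akt1 went from 13.3, 21.1 and 46.9 FPKM (CD4, M1, M2) to 85.6, 102 and 46.9. Of the 9 genes, the number called higher in CD4 than in M2 went from 6 to 5 at a 4-fold limit. It went to 7 with first rows and a dash as 0, where Csf2rb2 joined, and with all rows summed (chosen after seeing the data). In M1 over M2 it likewise went from 6 to 5 and to 7, but was 6 with all rows summed. In CD4 over M1 it went from 1 to 3 at a 1.5-fold limit and to 2 with all rows summed, where Csf3r joined. In M1 over CD4 it went from 0 to 2 at 1.5-fold. In M2 over CD4 it went from 0 to 1 at 1.5-fold and to 1 with a pseudocount of 0.1, as it did in M2 over M1 with that pseudocount, where the gene was Il34. Over all genes, a 1.5-fold limit gave 2939 higher in CD4 than M2, 3890 in M2 than CD4, 2948 in M1 than M2, 3816 in M2 than M1, 1586 in CD4 than M1 and 1543 in M1 than CD4, and a 4-fold limit gave 721, 815, 688, 799, 259 and 270, against 1903, 2156, 1806, 2110, 809 and 839 at 2-fold. A pseudocount of 0.1 gave 3740 in M2 over CD4, 2728 in M1 over M2, 3798 in M2 over M1, 1647 in CD4 over M1 and 1537 in M1 over CD4. First rows with a dash as 0 gave 1425 in M1 over CD4. Wider and narrower limits change counts by construction. A smaller pseudocount can only enlarge a log2 ratio in size, so its counts could not fall. For the change over all genes with first rows and a dash as 0 the cause was not tested. Of the single-gene values, 159 moved little and 6 moved. Many of the 159 could not move, because the filter leaves a ratio as it is and no gene had a further complete row with a level above 0. The tally is therefore no measure of stability. Median scaling used factors of 0.979 to 1.02. Depth limits the ligands with values near 0, such as Csf3, while the values of Il34 depend on the rows used.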
